A study of Drosophila melanogaster with 6 samples.

Results

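The genes described here encode the contractile machinery of striated muscle: thick and thin filament proteins, troponins, titin-like proteins and components of the Z-disc, the plate that borders each sarcomere and anchors its thin filaments. The list held 36 names for 35 genes, because Unc-89 and Obsc name the same gene, obscurin. A gene was measured where an array row, a summary of the probes of 1 target, was assigned to it and to no other gene. That held for 27 of the 35 sarcomere genes, out of 13346 genes named on the array. Act57B, Mhc, wupA, Tm1, TpnC47D and TpnC25D have no row under their names in the annotation used, and Actn and Lasp are named on rows that also name another gene, so these 8 were not analysed here.

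RNA was measured on 6 Affymetrix Drosophila gene arrays, 3 control and 3 pool. In control flies an empty TRiP RNA interference vector was combined with repo-GAL4, which drives transgenes in almost every glial cell. The pool combined RNA in equal parts from 7 lines crossed to that driver, namely RNA interference lines for SesB, COX7A, comt, nrv2 and ATPalpha and the overexpression lines UAS-Dube3a and UAS-htt.12Q.FL. The series concerns expression common to flies whose altered glia give seizures after a mechanical shock. Flies were about 3 to 5 days old and kept at 25 °C, and 15 to 25 heads were used for each genotype. Each array of the pool group therefore read a mixture, and a rise in 1 line cannot be told apart from a smaller rise in all 7. Whether replicate arrays represent separate flies or separate RNA preparations is not stated in the labels, so p-values measure the spread between arrays, which may be technical.

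In a sarcomere, myosin of the thick filaments pulls on actin of the thin filaments when calcium binds troponin C and the troponin complex shifts tropomyosin. Drosophila builds different muscles from different copies of these proteins, made from separate genes for actin and troponin C and by alternative splicing of others. The indirect flight muscles, which lie in the thorax and beat the wings by stretch activation, use the actin Act88F, the thick filament protein flightin (fln) and the troponin C TpnC4. Other muscles, among them those of the head that move the proboscis and antennae, share most of the remaining genes.

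The 3 genes set apart here as flight muscle genes rose strongly in the pool, by 3.89-fold for Act88F, 3.74-fold for fln and 2.24-fold for TpnC4. Flight muscle shares other genes with other muscles, so these 3 do not stand for all of its genes. Of the 24 other measured sarcomere genes, 3 rose by 1.19- to 1.29-fold (TpnC73F, up and Mlc1), and 21 did not pass the test. These 3 smaller rises no longer passed with any 1 array left out or with each array centred on its median. They also did not pass with a block for the replicate number. In each of these settings the 3 flight muscle genes were those still called. No sarcomere gene passed in the downward direction in limma with Benjamini-Hochberg adjustment over all 16322 rows, although 2 (sls and Msp300) were lower at an unadjusted p under 0.05 and Msp300 passed when eBayes was run with trend and robust settings. The 6 that rose are 22.2% of the 27, where 2.9% of all rows were called, 1.65% higher in the pool and 1.24% lower. In bulk heads, a change in the number of muscle cells and a change in RNA per cell cannot be told apart.

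Act88F encodes the actin of the flight muscle thin filaments. Its deposited log2 values were 8.28, 8.15 and 8.06 on the control arrays and 10.09, 10.15 and 10.14 on the pool arrays. All pool arrays lay far above all control arrays, and the pool arrays lay close together. The means were 8.16 ± 0.11 and 10.12 ± 0.03 (SD, n = 3 arrays each). The log2 fold change was 1.96 ± 0.066 (SE, limma adjusted p = 7.01e-06). This was the eighth largest log2 fold change upward among the named genes.

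Flightin, encoded by fln, binds myosin and sets the length and stiffness of flight muscle thick filaments. Its row read 7.06, 7.06 and 6.88 in the control and 8.93, 8.98 and 8.79 in the pool. The groups did not overlap, and the lowest array in each was replicate 3. Its log2 fold change was 1.90 ± 0.075 (SE, limma adjusted p = 1.45e-05), close behind that of Act88F.

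TpnC4 encodes the troponin C through which flight muscle responds to stretch. Its row read 5.82, 5.96 and 5.75 in the control and 7.02, 7.05 and 6.96 in the pool. The groups were again separate, with a gap smaller than for Act88F and fln. The log2 fold change was 1.16 ± 0.067 (SE, limma adjusted p = 0.000118), rank 22 among the 13346 named genes. The calls of all 3 flight muscle genes held under each of the 14 alternative settings, with log2 fold changes of 1.91 to 2.02 for Act88F, 1.84 to 1.96 for fln and 1.12 to 1.22 for TpnC4, and with adjusted p no higher than 0.000301, 0.00034 and 0.00169.

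**Figure D1:**
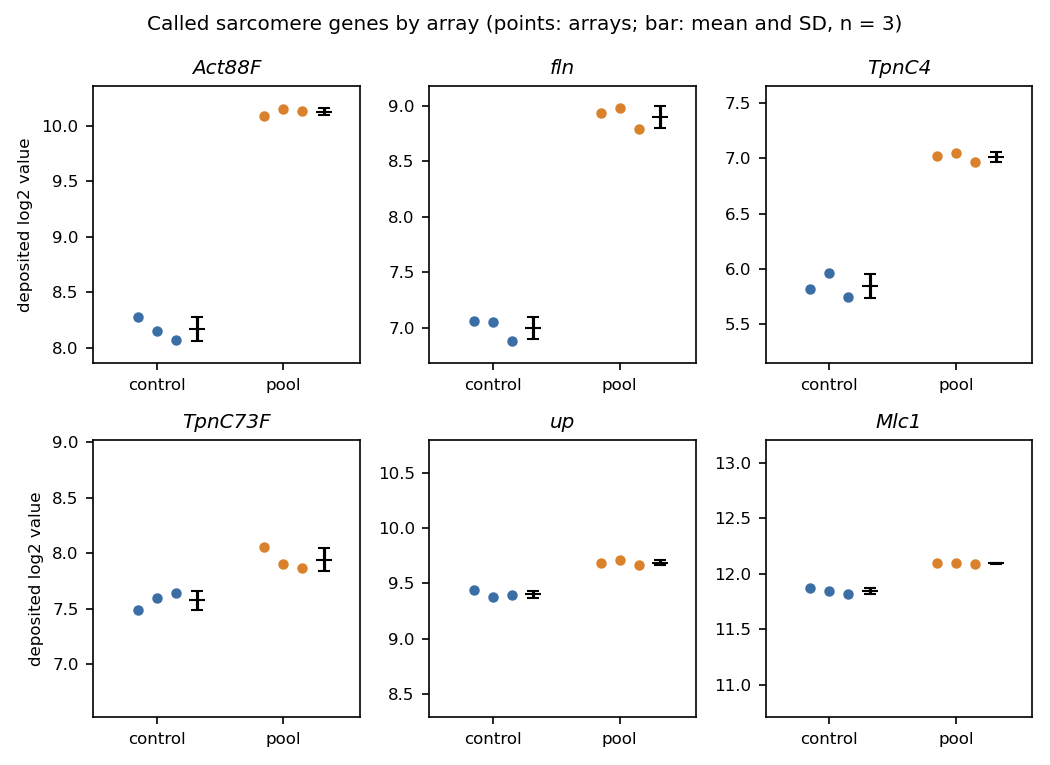
Deposited log2 value (vertical axis, the same span in each panel) of the 6 sarcomere genes that passed the test, with 1 point per array for control (blue) and pool (orange) and the group mean ± SD (n = 3) in black. Act88F, fln and TpnC4 differ by 1.16 to 1.96 log2 units between groups, and TpnC73F, up and Mlc1 by 0.25 to 0.37.

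The other muscle actins gave no such difference. Act79B, an actin of tubular muscles such as those of the legs and the jump muscle, read 8.01, 8.12 and 8.08 in the control and 8.07, 8.18 and 7.91 in the pool. The pool values spanned the control values, with a log2 difference of -0.02 and a 95% interval of -0.19 to 0.16 (limma adjusted p = 0.947). Act87E, an actin of larval and abdominal body wall muscle, read 5.86, 5.94 and 5.97 in the control and 5.92, 6.18 and 5.92 in the pool. Pool replicate 2 alone lay above the control arrays, and the log2 difference was 0.09 with an interval of -0.10 to 0.27 (adjusted p = 0.704). The sign of each of these near-zero differences turned on leaving out 1 array. The log2 change of Act88F exceeded that of Act79B by 1.98 ± 0.12 (SE over arrays) and that of Act87E by 1.87 ± 0.12. Every pool array lay above every control array in both differences, and an exact two-sided permutation test gave p = 0.1 for each, which is the smallest p that 3 arrays against 3 allow. The genes compared were chosen with earlier results of these data known, so this test adds no support. The muscle actins have nearly identical coding sequences, and how far their probes read each other's RNA was not tested.

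Among the troponin C genes, which encode the calcium sensor of the thin filament, 3 of 5 were measured, and in all 3 the pool arrays lay above the control arrays, as they did in 11.4% of all rows. TpnC73F, known from larval muscle, read 7.48, 7.60 and 7.64 in the control and 8.06, 7.90 and 7.86 in the pool. Its log2 fold change was 0.37 ± 0.071 (SE, limma adjusted p = 0.0382), or 1.29-fold. TpnC41C, a further troponin C gene, read 5.93, 5.93 and 6.03 in the control and 6.16, 6.18 and 6.06 in the pool. The lowest pool array was only just above the highest control array, and the log2 difference of 0.17 ± 0.058 (SE) did not pass (adjusted p = 0.214). The change of TpnC4 exceeded that of TpnC41C by 0.99 ± 0.09 and that of TpnC73F by 0.80 ± 0.10 log2 units (SE over arrays). Both exact permutation tests again gave the smallest possible two-sided p of 0.1, which was also the value after Benjamini-Hochberg adjustment over the 4 pairs of related genes compared. As for the actins, the tests add no support.

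**Figure D2:**
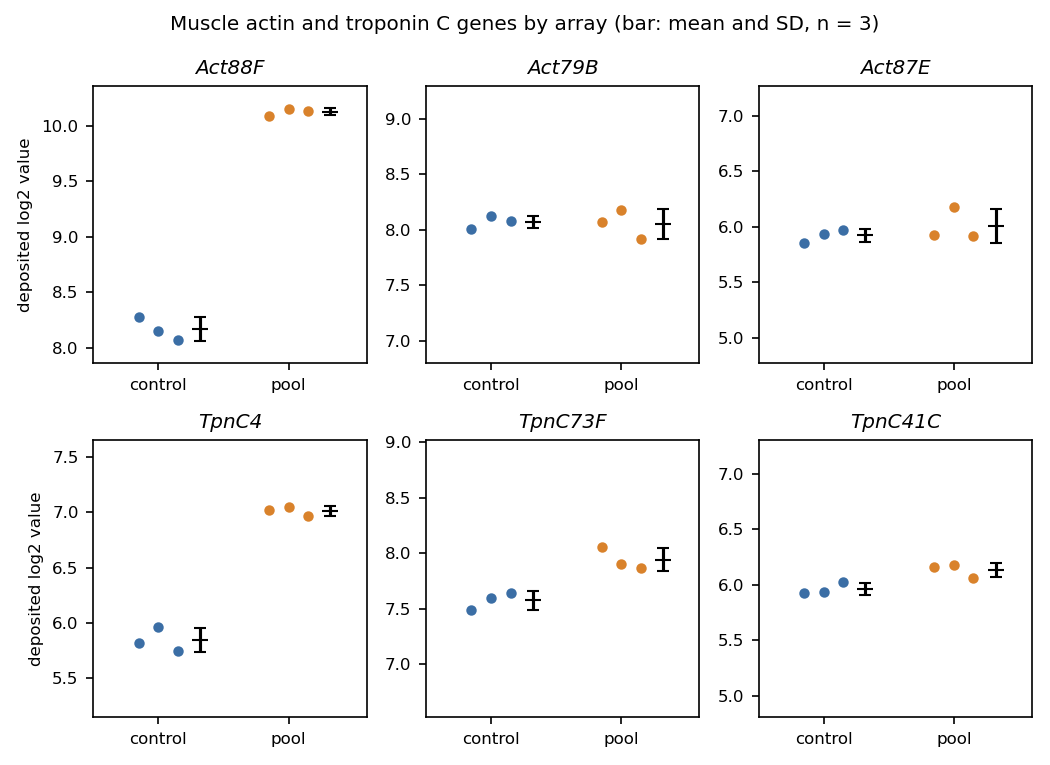
Deposited log2 value (vertical axis, the same span in each panel) of the measured muscle actin genes (top) and troponin C genes (bottom), with 1 point per array for control (blue) and pool (orange) and the group mean ± SD (n = 3) in black. Act88F and TpnC4 are well separated between groups, Act79B and Act87E overlap, and TpnC73F and TpnC41C differ by 0.37 and 0.17.

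Among the remaining measured thin filament genes, only up passed the test. Upheld (up) encodes troponin T, which ties the troponin complex to tropomyosin. Its row read 9.44, 9.38 and 9.39 in the control and 9.69, 9.71 and 9.67 in the pool. It rose by 0.28 ± 0.049 log2 units (SE, 1.22-fold, limma adjusted p = 0.0236), and the groups were tight and separate. Tm2, a tropomyosin gene, averaged 8.57 ± 0.10 on control arrays and 8.83 ± 0.10 on pool arrays with separate groups, a difference of 0.26 that did not pass (adjusted p = 0.138). The pointed-end capping protein gene tmod differed by 0.03 and sals, a regulator of thin filament length, by 0.01, each with overlapping groups.

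Of the 5 measured thick filament genes, fln and Mlc1 rose and 3 did not pass. Mlc1, the essential myosin light chain gene, read 11.87, 11.85 and 11.82 in the control and 12.10, 12.10 and 12.09 in the pool. Its arrays agreed more closely than those of any other pool measurement in the list, and its rise was 0.25 ± 0.048 log2 units (SE, 1.19-fold, limma adjusted p = 0.0366). Prm, the gene of paramyosin in the thick filament core, stood at 9.89 ± 0.09 and 10.11 ± 0.04, a difference of 0.22 with separate groups (adjusted p = 0.13). Mlc2, the regulatory light chain gene, differed by 0.10 with separate groups (adjusted p = 0.429), and Mf, which encodes myofilin, by 0.03 with overlapping groups (adjusted p = 0.842).

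The 3 smaller rises passed narrowly. Leaving out any 1 of the 6 arrays ended the calls of TpnC73F (adjusted p 0.0629 to 0.122), up (0.0582 to 0.0954) and Mlc1 (0.0907 to 0.123). Their log2 fold changes stayed at 0.31 to 0.40, 0.27 to 0.30 and 0.23 to 0.26. A block for the replicate number ended the 3 calls too (limma adjusted p = 0.118, 0.0839 and 0.113). The calls also ended when each array was centred on its median, which placed the median row at -0.03 log2 units. Over all rows that centring gave 219 calls higher and 249 lower in the pool, where the deposited values gave 270 and 203.

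**Figure D3:**
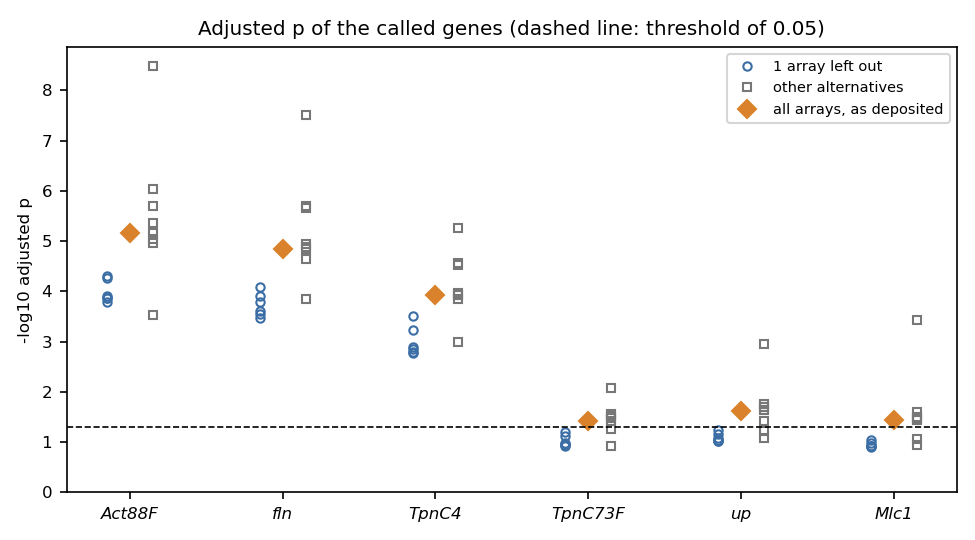
Adjusted p on a -log10 scale (vertical axis) for each of the 6 genes that passed (horizontal axis), with all arrays as deposited (orange diamonds), with 1 array left out (blue circles) and under the other alternatives (grey squares). The points of Act88F, fln and TpnC4 all lie above the dashed threshold of 0.05, while every blue circle of TpnC73F, up and Mlc1 lies below it.

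Genes of titin-like proteins and giant kinases formed a further group. None of the 4 measured genes passed in limma, and 1 was higher and 1 lower at an unadjusted p under 0.05. Obsc, the obscurin gene of the M-line at the sarcomere centre, read 7.06, 7.05 and 7.08 in the control and 7.33, 7.33 and 7.25 in the pool. Its groups were separate, and its difference of 0.24 lay at the threshold (adjusted p = 0.0507), passing under 4 of the 14 alternatives. The gene sls, which encodes Sallimus and its kettin isoforms, stood lower in the pool at 7.86 ± 0.08 against 8.03 ± 0.06 (SD, n = 3), a difference of -0.17 (adjusted p = 0.231). The projectin gene bt differed by 0.01.

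Strn-Mlck, a stretchin and myosin light chain kinase gene, had more than 1 row, and its rows differed in sign. The brighter row averaged 7.26 ± 0.09 on control arrays and 7.43 ± 0.15 on pool arrays, a difference of 0.17 (adjusted p = 0.407). The dimmer row stood at 5.19 ± 0.19 and 4.81 ± 0.05, a difference of -0.38 (adjusted p = 0.0957). Msp300, a giant nesprin-family protein gene of muscle nuclei and Z-discs, also had more than 1 row. Both were lower in the pool, by -0.23 (adjusted p = 0.164) and -0.25 (adjusted p = 0.111) on the log2 scale.

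None of the 5 measured Z-disc and LIM protein genes passed in limma, and 1, Mlp60A, was higher at an unadjusted p under 0.05. Mlp60A, a muscle LIM protein gene, stood at 6.95 ± 0.09 and 7.17 ± 0.05 with separate groups (difference 0.22, adjusted p = 0.139). Its relative Mlp84B stood at 10.25 ± 0.07 and 10.23 ± 0.05 with overlapping groups. The PDZ and LIM protein genes Zasp52 and Zasp66 differed by 0.03 and 0.02, and Zasp67 by 0.16 with overlapping groups (adjusted p = 0.468). SERCA, the calcium pump that refills the sarcoplasmic reticulum, differed by 0.02, and Argk1, the arginine kinase that buffers ATP, by -0.04.

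**Figure D4:**
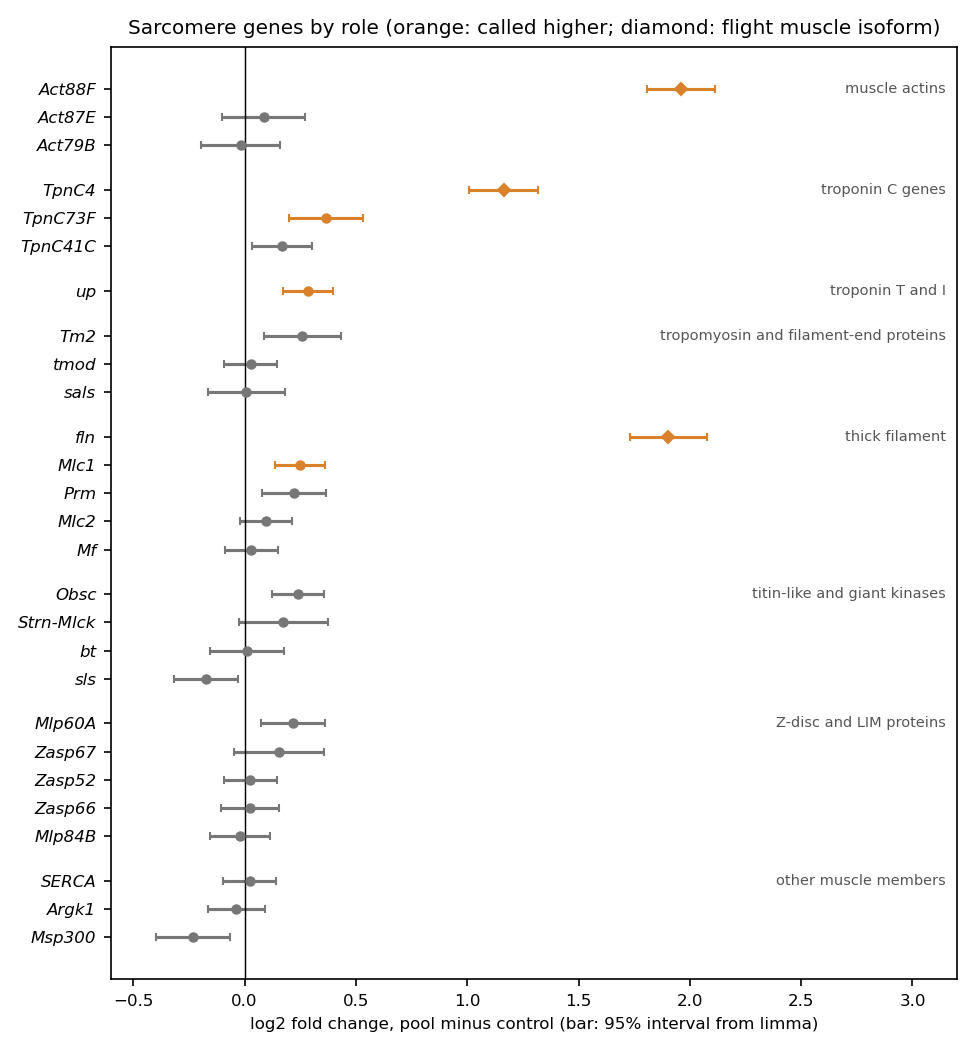
Log2 fold change of each of the 27 measured sarcomere genes, pool minus control (horizontal axis), with its 95% interval from limma, grouped by role. Genes called higher are orange, and the flight muscle isoforms, drawn as diamonds, stand at 1.16 to 1.96. Every other gene, drawn from its highest-mean row, lies between -0.23 and 0.37.

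Taken as a list, the sarcomere genes had a median log2 fold change of 0.10, beside -0.00 over all named genes, and 22 of 27 were higher and 5 lower by mean, against 49.8% of all rows higher. With arrays centred on the median 15 were higher, and after quantile normalization 20. All 3 pool values lay above all 3 control values for 12 of the 27 sarcomere genes, against 11.4% of all rows, and below for 2, against 10% of all rows. With arrays centred on the median these counts were 9 and 2, against 7.08% and 14.5% of all rows. Without the 3 flight muscle genes the median was 0.06, and the pool lay above the control for 9 of 24. For all of these 24 the 95% interval, not adjusted for the number of genes, lay within a 1.5-fold change in either direction. This holds for the highest-mean row of each gene. The dimmer rows of Msp300 (-0.25) and Strn-Mlck (-0.38) were not part of the count. Genes of a list share arrays and are not replicates, so these counts describe the list and test nothing.

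The arrays of a group differed little. The median SD across the 27 sarcomere genes was 0.06 in the control and 0.05 in the pool, and the widest were Zasp67 in the control (0.13) and Strn-Mlck in the pool (0.15). Control replicate 1 was the lowest control array for 16 of the 27 genes and control replicate 3 the highest for 16. Control replicate 3 was nonetheless the lowest control array for all 3 flight muscle genes. All 27 sarcomere genes had a mean above the lower quartile of row means (4.23).

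Among genes outside the list that build, attach, regulate or power muscle or form non-muscle actomyosin, 2 of 65 measured passed the test, a share close to the 2.9% of all rows that were called. Of 14 measured genes of other muscle structure proteins, 1 rose and 1 fell, with a median of -0.00. The riser was GstS1, a glutathione S-transferase gene whose product binds flight muscle troponin-H, with means of 9.95 ± 0.08 on control and 10.73 ± 0.04 on pool arrays (log2 fold change 0.79, limma adjusted p = 0.000473). The gene that fell was tn, which encodes the TRIM protein Thin of muscle integrity, by 0.26 on the log2 scale (adjusted p = 0.0435). None of 13 genes of calcium release and the muscle membrane, 13 of muscle attachment, 9 of muscle transcription and splicing, 9 of glycolysis and the glycerophosphate shuttle or 7 of non-muscle actomyosin passed in limma. At an unadjusted p under 0.05 these lists held 0, 1, 1, 1 and 2 genes higher and 0, 2, 0, 0 and 0 lower. Their medians lay between -0.02 and 0.05.

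Markers of other head and body tissues moved on the same arrays. Their lists were chosen with earlier results of these data known, so the counts describe the lists and test nothing. Beside 1.65% of all rows called higher and 1.24% lower, 7 of 12 cuticle and epidermis genes rose and 0 fell, with a mean log2 level of 5.63 to 5.67 over the control arrays and 6.48 to 6.60 over the pool arrays; none was lower at an unadjusted p under 0.05. They were led by Vajk3 (2.38, adjusted p = 5.49e-06), Acp1 (2.32, 1.48e-06), Cpr100A (1.64, 3.95e-05) and Cpr97Eb (1.35, 0.00103). Of 10 digestive tract genes 5 rose and 0 fell (1 lower at an unadjusted p under 0.05), with a mean level of 6.24 to 6.30 in the control and 6.48 to 6.61 in the pool. They were led by epsilonTry, which encodes a trypsin (0.68, adjusted p = 0.00145), Jon99Ci (0.62, 0.0235), LysP, which encodes a lysozyme (0.57, 0.0042), and Mal-A6 (0.41, 0.0322).

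Of 10 fat body genes 2 rose, Lsp2 (1.33, adjusted p = 1.45e-05) and Obp99b (0.55, 0.00428), 0 fell, and 1 was lower at an unadjusted p under 0.05. The log2 difference was negative in 6 of the 10, with a median of -0.04, while the mean level was 10.22 to 10.25 in the control and 10.38 to 10.41 in the pool. Of 9 haemocyte genes 2 fell, the crystal cell genes PPO1 and PPO2 at -0.36 each (adjusted p = 0.00875 and 0.00827), and 0 rose. At an unadjusted p under 0.05, 2 were higher and 4 lower. The log2 difference was positive in 5 of the 9, with a median of 0.00, and the mean level was 7.79 to 7.87 in the control and 7.72 to 7.78 in the pool. The part of these tissues in the flight muscle rise was not tested.

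The labels name brain as the tissue, while the protocol took heads, and the arrays read both. The 8 measured neuron markers had a mean log2 level of 9.83 to 9.93 in the control and 9.88 to 10.00 in the pool, with none called and none at an unadjusted p under 0.05. The 9 glia markers, among them the interference target nrv2, stood at 9.37 to 9.40 and 9.28 to 9.31. Only wrapper, a gene of cortex glia, was called, and it fell by 0.47 log2 units (limma adjusted p = 0.00299). The log2 difference was negative in 7 of the 9, and 4 were lower and 1 higher at an unadjusted p under 0.05. The 7 photoreceptor markers, which mark the retina rather than the brain, stood at 11.85 in each control array and 11.95 to 11.98 in the pool. Only chp was called, at 0.29 (adjusted p = 0.0309), while 3 were higher and 0 lower at an unadjusted p under 0.05. Array values have no true zero, so no marker can be called absent.

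**Figure D5:**
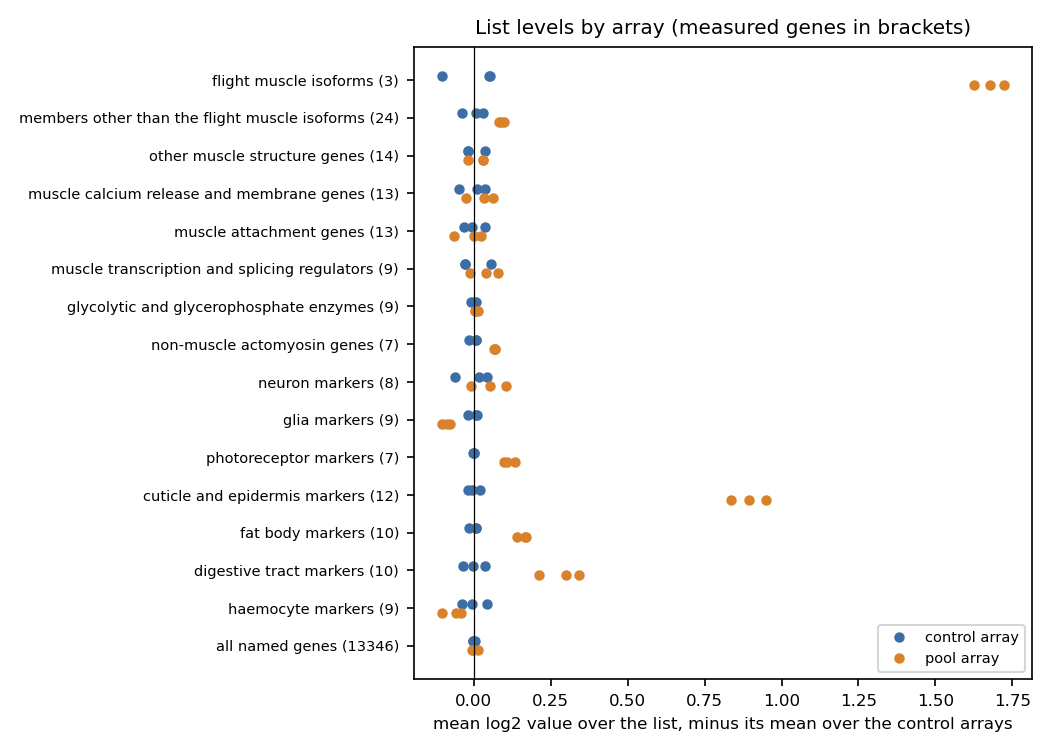
Mean log2 value over the measured genes of each list on each array, minus the list's mean over the control arrays (horizontal axis), for control (blue) and pool (orange) arrays, with the number of genes in brackets. The 3 pool arrays stand furthest right for the flight muscle isoforms, followed by the cuticle and epidermis markers, while the muscle calcium and attachment lists overlap the control arrays.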

How the data were processed

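The authors deposited 1 log2 value per array row and array; the log2 scale was inferred from the range (3.20 to 14.02). Per the submitters' processing notes Affymetrix Expression Console was used; its version and algorithm and the genome build were not given in the sources used. Values were used as deposited. Rows were named from the platform annotation, updated through the RefSeq gene table of Release 6 plus ISO1 MT (144 symbols updated): of 16322 rows 13442 had 1 symbol, 554 several and 2326 none. Where a gene had several rows, the row with the highest mean stood for it.

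Pool minus control was fitted with limma 3.58.1 (R 4.3.3, lmFit and eBayes, two-sided, all rows, no filter on dim rows), with a Benjamini-Hochberg adjusted p under 0.05 over all rows; residual degrees of freedom were 4. Steps were tested on simulated data, where 46% of changes of 0.3 log2 units and 98% of changes of 0.585 were recovered. Of 182 calls in the simulation 10 were false. Array medians were 5.53 to 5.63, correlations across rows 0.9967 to 0.9978 within groups and 0.9952 to 0.9960 between, and no array duplicated another. The number of arrays limits precision: the median standard error was 0.0677.

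Members and lists were chosen with earlier results of these data known. By rule, measured members were named, those that passed and the actin and troponin C families with each array's value, and up to 4 called genes of largest change in other lists. Alternatives were quantile normalization, median centring, dropping the dimmest 25% of rows, leaving out each array, array weights, rows with 1 symbol, a block for the replicate number, trend and robust settings in eBayes and the mean over a gene's rows. No sequences are shown.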

Additional observations from a re-analysis of the deposited data

How the results depend on the processing

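Act88F, fln and TpnC4 kept their calls under all 14 alternatives. The count of sarcomere genes called higher was 6 as deposited, after quantile normalization and with the mean over a gene's rows. It was 3 with arrays centred on the median, with the replicate number as a block and with any 1 array left out, each time these 3 genes. With array weights, without the dimmest rows and on rows with 1 symbol the count was 7, and with eBayes trend and robust settings 9. The 9 included Prm (limma adjusted p = 0.0238) and Tm2 (0.0416). The labels give replicate numbers and do not say whether same-numbered arrays were handled together. The correlations of their deviations from the group means were -0.01, -0.00 and 0.09 for replicates 1, 2 and 3. Those of differently numbered arrays ranged from -0.07 to 0.08. With 3 arrays per group these values cannot decide whether the arrays were paired. With eBayes trend and robust settings 1 sarcomere gene was called lower, Msp300 (adjusted p = 0.0359). The median of the sarcomere genes was 0.10 as deposited, 0.0638 with arrays centred on the median and 0.0786 to 0.1301 with 1 array left out. The number of all rows called was 473 as deposited, 861 with trend and robust settings, 312 with the block and 218 to 312 with 1 array left out. Differences that were mostly near zero changed sign in genes that did not pass under any of these settings. With arrays centred on the median these were Mf (-0.0016), Zasp52 (-0.0062), Zasp66 (-0.0092), bt (-0.0209), tmod (-0.0054), sals (-0.0244) and SERCA (-0.0094). After quantile normalization they were bt (-0.0019) and sals (-0.0078), with array weights sals (-0.0120), and with the mean over a gene's rows Strn-Mlck (-0.10). With 1 array left out, the range was -0.0808 to 0.0512 for Act79B, -0.0013 to 0.13 for Act87E, -0.0015 to 0.0505 for Zasp52, -0.0033 to 0.0564 for Zasp66, -0.0560 to 0.0107 for Mlp84B, -0.0470 to 0.0530 for bt, -0.0511 to 0.0461 for sals and -0.0086 to 0.0420 for SERCA. Centring moved the difference of every row by the same amount, and the mean for Strn-Mlck joined 1 row at 0.17 with another at -0.38. The cause of the other shifts was not tested.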

Other observations

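Of the 12 genes that were the nearest measured ones on either side of the 6 sarcomere genes that passed, in the RefSeq order, 1 passed in limma, while 2 were higher and 2 lower at an unadjusted p under 0.05. Over all rows 2.9% were called, so 1 of 12 says little about neighbours. The gene that passed was Csas, the CMP-sialic acid synthase gene beside fln, which averaged 8.60 ± 0.05 on control and 7.94 ± 0.08 on pool arrays and fell by 0.66 on the log2 scale (SD, n = 3, adjusted p = 0.00142), against the rise of fln itself. Nca, on the other side of fln, differed by 0.14 (adjusted p = 0.373). Beside Act88F, CG6118 differed by -0.02 (adjusted p = 0.958) and AdamTS-A by 0.18 (0.112). Beside TpnC4, the glycosyltransferase gene Ugt50B3 differed by 0.04 (0.843) and the mitochondrial fission gene Fis1 by 0.20 (0.142). These neighbours were looked up after the values of the sarcomere genes had been seen.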
